A study of Mus musculus with 131 samples.

Results

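The Polycomb group is a set of chromatin proteins that keep developmental genes silent. The Polycomb repressive complex PRC2 places methyl groups on lysine 27 of histone H3 (H3K27) through Ezh2 or its paralogue Ezh1, held in an active core by Eed and Suz12, and accessory subunits such as Jarid2, Mtf2 and Phf19 guide it to CpG-rich start regions. PRC1 adds ubiquitin to histone H2A through Rnf2 or its paralogue Ring1, and a Pcgf subunit such as Pcgf1 sets which form of PRC1 is built. In the early mouse embryo these complexes mark the start sites of lineage genes in the inner cell mass and the cells that descend from it. Described here are 10 of these genes, Ezh1, Ezh2, Eed, Suz12, Jarid2, Mtf2, Phf19, Rnf2, Ring1 and Pcgf1, chosen by symbol from the 13927 genes of the deposited expression table, and each of the 10 has 1 row there. Gene spans are those of RefSeq on GRCm38.p6.

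The cells came from reconstructed C57BL/6J blastocysts at embryonic day E4.0, which the design text describes as built by injecting embryonic stem cells (ESCs) with an Actin-RFP transgene into host embryos with an Actin-GFP transgene. The 55 RFP cells are descendants of the injected line and the 40 GFP cells are host cells, and both carry no other modification in the labels. Cells were picked singly by micromanipulation and their full-length cDNA was amplified without molecular identifiers. No label names the embryo of a cell, so the cells of a colour were treated as 1 sample, no test was run between the colours, and every interval below covers counting error only. DNA methylation was measured in 1 bisulfite library each of Actin-RFP ESCs at passage 10, ESCs with the Gjb2 35delG mutation at passage 7, and wild-type mouse embryonic fibroblasts (MEF) at passage 2, all C57BL/6J. The Actin-RFP ESCs are a single line, and no RNA of the cultured cells was analysed here.

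RFP cells held between 0.518 M and 9.56 M reads each (median 5.58 M), and GFP cells between 2.0 M and 8.32 M (median 5.61 M). The median number of genes with a read was 4527 in RFP cells and 5209 in GFP cells. Markers of epiblast (EPI) summed to 3035 CPM (reads scaled to the same total for each group or cell) in RFP cells and 470 CPM in GFP cells. Markers of trophectoderm (TE) summed to 172 CPM in RFP cells and 7946 CPM in GFP cells, and those of primitive endoderm (PrE) to 20.2 CPM in RFP cells and 550 CPM in GFP cells. By the same size of log2 ratio used below (at least 1), 10 of 12 EPI markers were higher in RFP cells, and 13 of 13 TE markers and 10 of 11 PrE markers were lower. The TE markers of a single cell summed to between 0.63 and 3574 CPM in RFP cells and to between 20.3 and 16310 CPM in GFP cells. Most of the PrE sum of GFP cells came from Dab2 (370.7 CPM) and Gata6 (111.5 CPM), and every other PrE marker had at most 17.5 CPM there. The mean log2 level of the PrE markers was 6.68 in GFP cell 36 and 5.24 in GFP cell 39. It was at most 2.50 in every other GFP cell. RFP cells were EPI-like and GFP cells TE-like, with PrE markers that were mainly Dab2 and Gata6. Origin (injected or host) and lineage therefore cannot be told apart in any difference below. Of 16 genes of the S phase of the cell cycle, 10 were higher in RFP cells by at least 1 on the log2 scale and 1 was lower by as much. More than 10% of reads came from mitochondrial genes in RFP cells 6, 14, 41 and 44 and in GFP cell 27, and GFP cell 27 was also the 1 cell of its colour whose EPI markers stood above its TE markers.

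Of the 10 Polycomb genes, 2 were higher in RFP cells by a log2 ratio of at least 1 (Eed and Phf19), 2 were lower by as much (Mtf2 and Ring1), and 6 lay between. The log2 ratio compares reads summed over the cells of a colour, as CPM + 1 in RFP cells over CPM + 1 in GFP cells. Over all 13927 genes, 25% were higher and 21.9% were lower by as much, so the share of Polycomb genes past that size was near the background. Among genes with at least 10 CPM in a group, 2 of 9 Polycomb genes were higher and 1 was lower, against 26.3% and 23.3% of 8184 genes. The median log2 ratio was -0.03 over the 10 genes and 0.08 over all genes. Of all genes past that size 53.2% were higher in RFP cells, and 31.1% when each cell was given the same weight on the log2 scale, which shifts the median of all genes by -0.15. A cell had a median of 6 of the 10 genes at 10 CPM or more in both colours, with a range of 0 to 9 in RFP cells and 1 to 8 in GFP cells. CPM is relative to the reads of each cell, so a difference in RNA per cell would not show in it.

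**Figure D1:**
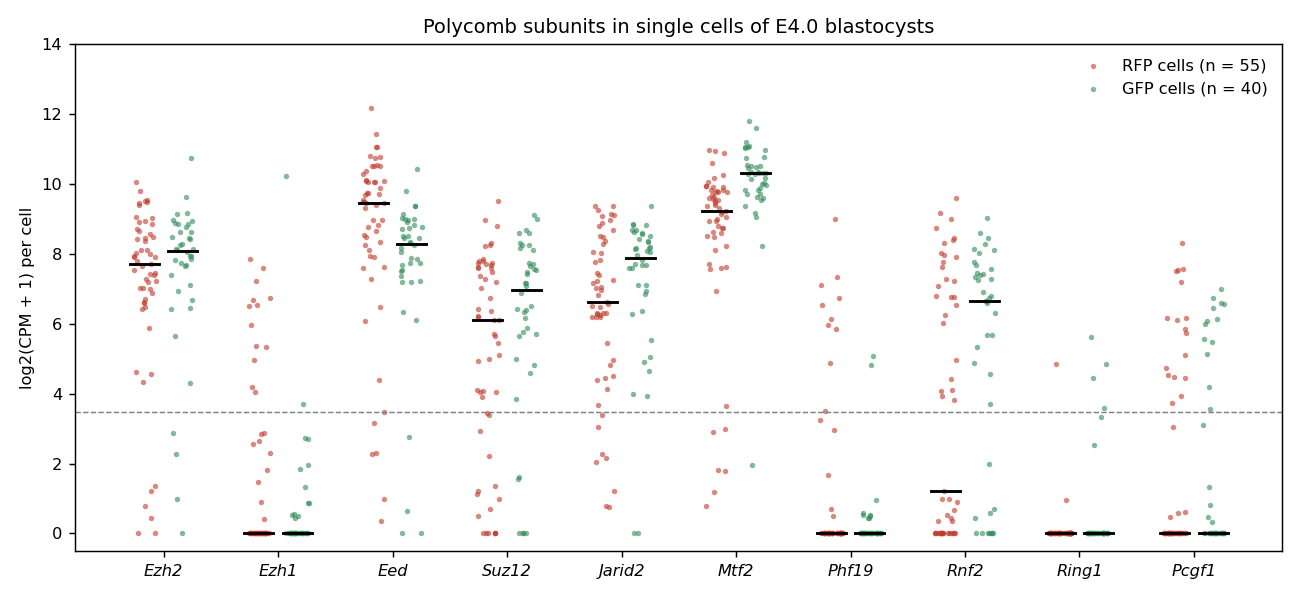
Level of each Polycomb gene in every RFP cell (left of each pair, n = 55) and GFP cell (right of each pair, n = 40), as log2(CPM + 1), with black bars at the median and a dashed line at 10 CPM. Eed sits higher in RFP cells and Mtf2 lower, while Ezh1, Phf19, Ring1 and Pcgf1 have a median of 0 in both colours.

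Ezh2 (ENSMUSG00000029687, chr6:47530274-47595270), the main H3K27 methyltransferase of dividing cells, stood at nearly the same level in both colours. Its level ran from 0 to 1064 CPM with a median of 209 CPM in RFP cells, and from 0 to 1699 CPM with a median of 268 CPM in GFP cells. The ranges overlapped over almost their whole length, and 49 of 55 RFP cells (89.1%) and 36 of 40 GFP cells (90.0%) had at least 10 CPM. Reads summed over cells gave 287 CPM (95% Poisson interval 286 to 289) in RFP cells against 300 CPM (297 to 302) in GFP cells, for a log2 ratio of -0.06.

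Ezh1 (ENSMUSG00000006920, chr11:101191115-101226463), the paralogue linked to non-dividing cells and the weaker methyltransferase of the pair, was at 0 in 33 of 55 RFP cells and in 27 of 40 GFP cells. At least 10 CPM were found in 13 RFP cells (23.6%, exact binomial interval 13.2 to 37.0%) and 2 GFP cells (5.0%, 0.611 to 16.9%). The highest level was 228 CPM among RFP cells and 1200 CPM among GFP cells. That highest value belongs to GFP cell 27, which supplied 91.8% of all Ezh1 reads of GFP cells, had 14.9% mitochondrial reads and held 0.969 CPM of Ezh2. Summed levels were 17.6 CPM in RFP cells and 12.1 CPM in GFP cells, a log2 ratio of 0.51, and without GFP cell 27 the GFP level was 0.998 CPM and the ratio 3.22. With each cell given the same weight, the mean level was 21.6 CPM in RFP cells and 30.8 CPM in GFP cells, a log2 ratio of -0.49. The difference of mean log2(CPM + 1) over cells, in which a single high cell weighs less, was 1.05 with GFP cell 27 included. The authors' deposited table gives Ezh1 a log2 fold change of 4.70, in a column whose direction is not named and was read as RFP over GFP from the values.

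The start regions of this pair are shown because their methylation is compared below. They span 250 bases before and 50 after the RefSeq start on GRCm38.p6, in the direction of the gene, with every CG dinucleotide in capitals. The Ezh2 window is chr6:47594981-47595280 on the minus strand and holds 31 CG, and the Ezh1 window is chr11:101226414-101226713 on the minus strand and holds 23 CG.
Ezh2: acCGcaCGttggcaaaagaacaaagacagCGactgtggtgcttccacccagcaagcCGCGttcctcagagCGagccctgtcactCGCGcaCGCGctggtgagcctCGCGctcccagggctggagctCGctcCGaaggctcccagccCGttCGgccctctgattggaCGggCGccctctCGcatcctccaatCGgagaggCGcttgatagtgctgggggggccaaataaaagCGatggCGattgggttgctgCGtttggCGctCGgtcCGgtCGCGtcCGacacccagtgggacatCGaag
Ezh1: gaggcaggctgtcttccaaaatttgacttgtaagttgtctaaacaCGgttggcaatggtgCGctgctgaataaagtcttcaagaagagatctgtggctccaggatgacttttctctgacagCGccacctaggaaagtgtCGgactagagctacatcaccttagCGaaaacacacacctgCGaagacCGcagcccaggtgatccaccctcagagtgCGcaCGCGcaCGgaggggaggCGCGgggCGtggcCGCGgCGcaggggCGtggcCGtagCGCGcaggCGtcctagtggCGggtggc
Both are richer in CG than the median of 7 per 300 bases over 27025 RefSeq promoters, taking the first listed start of each gene.

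Ezh2 supplied 94.2% of the reads of the pair in RFP cells (94.1 to 94.4%) and 96.1% in GFP cells (96.0 to 96.3%). Without GFP cell 27 the GFP share was 99.7%, and with equal weight for each cell it was 92.8% in RFP cells and 90.9% in GFP cells. Reads are not corrected for transcript length, so these shares compare the colours and not the paralogues with each other. In RFP cells Ezh1 appeared together with Ezh2: all 13 RFP cells with at least 10 CPM of Ezh1 had at least 10 CPM of Ezh2, and 36 more had Ezh2 alone. In GFP cells the pair was never found together at that level: 36 cells had Ezh2 alone, 2 had Ezh1 alone and 2 had neither. One of those 2 Ezh1 cells is GFP cell 27. The other, GFP cell 31, had 11.9 CPM of Ezh1 and 6.39 CPM of Ezh2, so both genes were present near the limit of 10 CPM. Since 49 of all 55 RFP cells had Ezh2 at that level, the 13 RFP cells with both say little about a link between the paralogues.

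**Figure D2:**
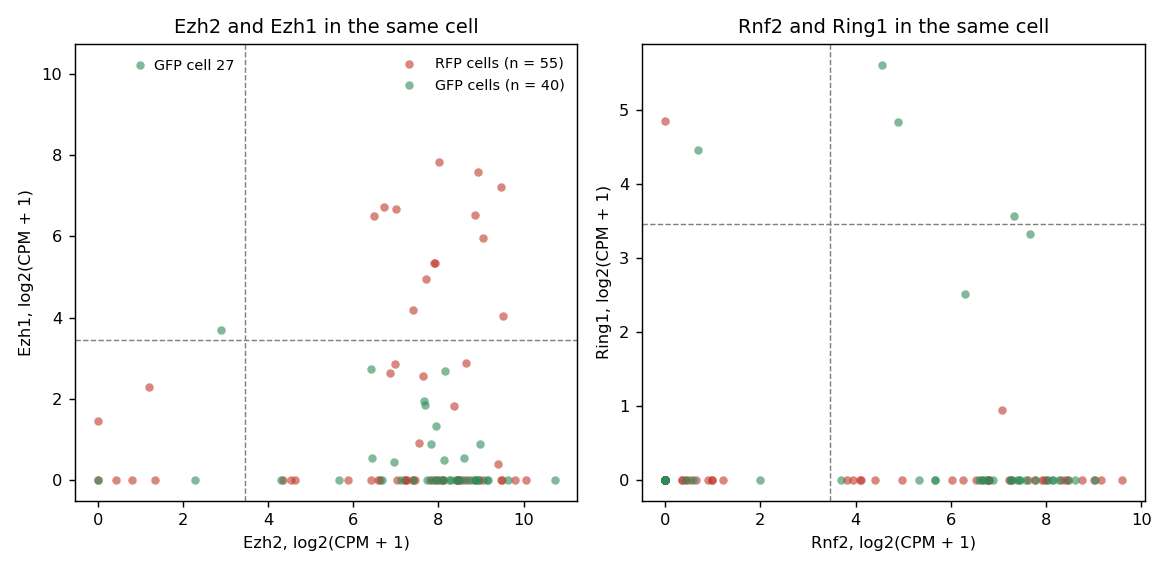
Paralogues in the same cell, as log2(CPM + 1) of Ezh2 against Ezh1 (left) and of Rnf2 against Ring1 (right), for RFP cells (n = 55) and GFP cells (n = 40), with dashed lines at 10 CPM. The upper right field of the left plot holds 13 RFP cells and no GFP cell, and that of the right plot holds 3 GFP cells and no RFP cell.

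Eed (ENSMUSG00000030619, chr7:89954654-89980976), the core subunit that reads the H3K27 mark and anchors the methyltransferase, was higher in RFP cells in sum and in the middle of its range. Eed ran from 0.271 to 4568 CPM with a median of 695 CPM in RFP cells, and from 0 to 1383 CPM with a median of 309 CPM in GFP cells. The colours overlapped, but 19 RFP cells and 1 GFP cell reached 1000 CPM. The share of cells with at least 10 CPM did not set the colours apart, at 50 of 55 RFP cells (90.9%) and 36 of 40 GFP cells (90.0%). Summed levels were 885 CPM (882 to 888) in RFP cells against 328 CPM (326 to 331) in GFP cells, for a log2 ratio of 1.43 that stayed between 1.35 and 1.52 with any 1 cell left out. The difference of mean log2(CPM + 1) over cells was 0.99, just under the size of 1. The authors' deposited table gives 1.22.

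Suz12 (ENSMUSG00000017548, chr11:79993106-80034123), the scaffold of the core, ran from 0 to 732 CPM with a median of 67.3 CPM in RFP cells, and from 0 to 547 CPM with a median of 125 CPM in GFP cells. At least 10 CPM were found in 39 of 55 RFP cells (70.9%) and 34 of 40 GFP cells (85.0%). Summed levels were 124 CPM in RFP cells and 158 CPM in GFP cells, a log2 ratio of -0.34, and the difference of mean log2 levels was -0.98. The 3 core genes therefore did not move together between the colours: Eed was higher in RFP cells, Ezh2 was level, and Suz12 lay below 0 by less than the size set for a call. All of Ezh2, Eed and Suz12 reached 10 CPM in 35 of 55 RFP cells (63.6%, exact binomial interval 49.6 to 76.2%) and 31 of 40 GFP cells (77.5%, 61.5 to 89.2%).

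Jarid2 (ENSMUSG00000038518, chr13:44730774-44921643), a cofactor that binds nucleosomes and helps recruit PRC2, had a median of 97.7 CPM in RFP cells with a range of 0.692 to 657 CPM, and of 237 CPM in GFP cells with a range of 0 to 659 CPM. At least 10 CPM were found in 47 RFP cells and 38 GFP cells. Its summed level was 181 CPM in RFP cells and 242 CPM in GFP cells, a log2 ratio of -0.42.

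Mtf2 (ENSMUSG00000029267, chr5:108065660-108109219), a Polycomb-like subunit that binds unmethylated CG-rich DNA, was lower in RFP cells. It ran from 0.733 to 1983 CPM with a median of 593 CPM in RFP cells, and from 2.91 to 3552 CPM with a median of 1258 CPM in GFP cells. At least 1000 CPM were reached in 7 of 55 RFP cells and 27 of 40 GFP cells, although nearly all cells had some of it, with 10 CPM or more in 49 RFP cells and 39 GFP cells. Summed levels were 672 CPM (669 to 675) in RFP cells against 1369 CPM (1364 to 1374) in GFP cells, for a log2 ratio of -1.03. The ratio lies close to the size set for a call: it was -0.96 without GFP cell 37 and -1.0, just short of that size before rounding, without the 5 cells with over 10% mitochondrial reads. The authors' deposited table gives -1.24.

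RefSeq lists an upstream start for Mtf2 and another 12491 bases further along the gene, and both windows are shown because their methylation differs. They are chr5:108065424-108065723 and chr5:108077915-108078214 on GRCm38.p6, plus strand, in the same format, with 30 and 2 CG.
Mtf2 start 1: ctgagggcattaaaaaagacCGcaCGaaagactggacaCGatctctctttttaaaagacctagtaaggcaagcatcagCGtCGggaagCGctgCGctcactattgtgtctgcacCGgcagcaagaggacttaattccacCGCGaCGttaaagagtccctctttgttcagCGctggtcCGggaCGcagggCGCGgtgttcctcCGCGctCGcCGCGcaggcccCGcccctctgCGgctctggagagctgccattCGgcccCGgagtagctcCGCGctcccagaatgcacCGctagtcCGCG
Mtf2 start 2: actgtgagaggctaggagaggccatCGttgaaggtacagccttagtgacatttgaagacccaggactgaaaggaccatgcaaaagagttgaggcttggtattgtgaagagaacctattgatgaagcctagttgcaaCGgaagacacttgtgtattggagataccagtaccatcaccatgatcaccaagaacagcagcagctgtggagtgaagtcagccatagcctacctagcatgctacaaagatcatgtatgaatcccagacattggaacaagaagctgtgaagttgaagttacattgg

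Phf19 (ENSMUSG00000026873, chr2:34893752-34914353), another Polycomb-like subunit, was found in few cells of either colour. At least 10 CPM were seen in 10 of 55 RFP cells (18.2%, 9.08 to 30.9%) and 2 of 40 GFP cells (5.0%, 0.611 to 16.9%), with a highest level of 510 CPM in RFP cells and 32.7 CPM in GFP cells. Summed levels were 18.4 CPM in RFP cells and 1.66 CPM in GFP cells, a log2 ratio of 2.86. RFP cell 39 held 36.5% of the RFP reads, and without it the ratio was 2.27. With equal weight for each cell on the log2 scale the difference was 0.96. The authors' deposited table gives 3.68.

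Rnf2 (ENSMUSG00000026484, chr1:151469398-151500991), the main ubiquitin ligase of PRC1, had the same summed level in both colours but was spread over the cells in different ways. Its level ran from 0 to 767 CPM in RFP cells with a median of 1.31 CPM, and from 0 to 522 CPM in GFP cells with a median of 100.1 CPM. At least 10 CPM were found in 27 of 55 RFP cells (49.1%, 35.4 to 62.9%) and 29 of 40 GFP cells (72.5%, 56.1 to 85.4%). Among those cells alone the median was 147 CPM in RFP cells and 153 CPM in GFP cells. Summed levels were 115.6 CPM in RFP cells and 115.7 CPM in GFP cells, a log2 ratio of -0.00137, whereas the difference of mean log2 levels was -1.63. By mean CPM over cells the log2 ratio was -0.27, and the authors' deposited table gives -0.49.

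Thinning every cell to 500000 reads, which makes depth equal, left 50.9% of RFP cells and 77.5% of GFP cells with an Rnf2 read. Genes in general were also found in fewer RFP cells. Over the 1465 genes with at least 100 CPM in both colours, the share of cells at 10 CPM or more differed between RFP and GFP cells by a median of -7.05 percentage points, and that of Rnf2 by -23.4 points. Of those genes, 122 (8.33%) were at or below the Rnf2 value. Whether the number of genes found per cell accounts for the Rnf2 shares was not tested.

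Ring1 (ENSMUSG00000024325, chr17:34020792-34024680), the paralogue of Rnf2, was near the floor. It had a read in 2 of 55 RFP cells and 6 of 40 GFP cells, and at least 10 CPM in 1 RFP cell and 4 GFP cells, with highest levels of 28 CPM in RFP cells and 48.1 CPM in GFP cells. Summed levels were 0.649 CPM in RFP cells and 3.36 CPM in GFP cells, a log2 ratio of -1.40. That value rests on few cells: RFP cell 21 held 97.0% of the RFP reads and GFP cell 24 held 41% of the GFP reads, and the ratio was -2.10 without the RFP cell and -0.88 without the GFP cell. For Ring1 the authors' deposited table gives -5.32. Rnf2 supplied 99.4% of the reads of the pair in RFP cells and 97.2% in GFP cells. No RFP cell and 3 GFP cells had both genes at 10 CPM, and 27 RFP cells and 10 GFP cells had neither.

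Pcgf1 (ENSMUSG00000069678, chr6:83077552-83080855), which assembles a variant PRC1 with Bcor and Kdm2b, had at least 10 CPM in 17 of 55 RFP cells (30.9%) and 13 of 40 GFP cells (32.5%). The highest level was 314 CPM in RFP cells and 127 CPM in GFP cells. Summed levels were 34.2 CPM in RFP cells and 20.9 CPM in GFP cells, a log2 ratio of 0.68, with 28.2% of the RFP reads from RFP cell 34. The difference of mean log2 levels was -0.15, so the direction depends on how cells are weighted, and the authors' deposited table gives 0.01.

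**Figure D3:**
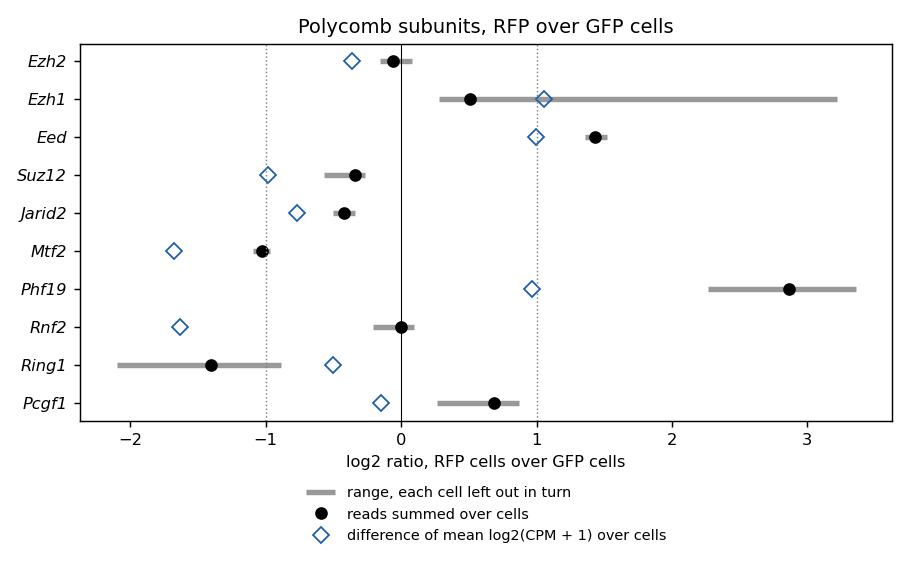
Log2 ratio of RFP over GFP cells for each Polycomb gene, from summed reads (black dots), with the range over leaving out each of the 95 cells in turn (grey bars) and the difference of mean log2(CPM + 1) over cells (open diamonds), with dotted lines at -1 and 1. Eed and Mtf2 have narrow ranges, and Ezh1 and Ring1 have wide ones because single cells hold much of their reads.

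Complexes need several subunits in the same cell. Jarid2 and Mtf2 reached 10 CPM together in 43 of 55 RFP cells (78.2%, 65.0 to 88.2%) and 38 of 40 GFP cells (95%, 83.1 to 99.4%). Rnf2 or Ring1 did so in 28 RFP cells (50.9%) and 30 GFP cells (75%), and Pcgf1 with either of them in 11 RFP cells (20.0%) and 11 GFP cells (27.5%). RFP cell 14, with 21.2% mitochondrial reads, was the 1 cell with none of the 10 genes at that level. Genes in general were found in fewer RFP cells, as described for Rnf2. Over the 1465 genes compared there, the quartiles of the difference in shares were -14.5 and -1.59 percentage points. Jarid2 (-9.55), Mtf2 (-8.41) and Suz12 (-14.1) lay between them, and Rnf2 (-23.4) lay below. A background for the joint shares was not computed. Across cells the 10 Polycomb genes had little rank correlation. Over the 45 pairs the median Spearman rho was 0.06 in RFP cells, with a range of -0.20 to 0.40, and 0.04 in GFP cells, with a range of -0.33 to 0.36. These are descriptions over 55 and 40 single cells, and how far dropout lowers rho was not tested.

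Ranked by Spearman rho over all 95 cells with the mean log2 level of Ezh2, Eed and Suz12, the 5 genes most like the PRC2 core were Mcl1 (0.48), Zscan26, Ncbp2, Cdk13 and Erich1 (0.41), against a median of 0.08 over the 5084 genes ranked. In RFP cells alone they were Ctcf (0.54), Mcl1, Gtf2h3, Nup98 and Atad5 (0.48), against a median of 0.11 over 3734 genes. Mcl1 encodes an inhibitor of apoptosis and Ctcf an architectural protein of chromatin. The ranking over all cells pools both colours, cells differ in depth and in the number of genes found, and the likeness of even the leading genes was moderate.

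The remaining Polycomb genes were taken as lists by complex. Of 8 further PRC2 genes in the table, 3 were higher in RFP cells by at least 1 on the log2 scale and 1 was lower, against 25% and 21.9% of all genes. Rbbp4, a histone-binding core subunit, had 149 CPM in RFP cells and 61.5 CPM in GFP cells (log2 ratio 1.26). Epop, an accessory subunit found in ESCs, had 13.4 CPM in RFP cells and 2.11 CPM in GFP cells (2.21).

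Canonical PRC1 binds the H3K27 mark through a Cbx subunit. Of 13 genes listed under it, 5 were higher in RFP cells and 5 lower, against 25% and 21.9% of all genes. That list includes the MBT-domain genes Sfmbt1 and Sfmbt2, described below, and both are among the 5 lower genes. Phc1, a subunit that lets PRC1 cluster, had the largest ratio of all further Polycomb genes, with 175 CPM in RFP cells and 15.1 CPM in GFP cells (log2 ratio 3.45) and at least 10 CPM in 37 of 55 RFP cells and 7 of 40 GFP cells. Cbx7, the Cbx subunit typical of ESCs, had 66.1 CPM in RFP cells and 27.1 CPM in GFP cells (1.25). Of the paralogous Pcgf subunits, Pcgf2 (Mel18) had 14.2 CPM in RFP cells and 2.94 CPM in GFP cells (1.94), and Bmi1 (Pcgf4) had 16.6 CPM in RFP cells and 62.2 CPM in GFP cells (-1.85). Single cells carry much of these reads. RFP cell 6, with over 10% mitochondrial reads, held 93.1% of the Bmi1 reads of RFP cells, and without it the RFP level was 1.15 CPM. With each cell given the same weight the mean Bmi1 level was 170 CPM in RFP cells and 58.7 CPM in GFP cells, the opposite direction. GFP cell 1 held 67.8% of the Pcgf2 reads of GFP cells, and without it the GFP level was 0.958 CPM. Scmh1, another canonical PRC1 subunit, had 12.4 CPM in RFP cells and 5.54 CPM in GFP cells (1.03), and the difference of its mean log2 levels was 0.19. Bmi1 was found at 10 CPM in 2 RFP cells and 16 GFP cells.

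Sfmbt2, an MBT-domain gene that is paternally expressed in mouse trophoblast, had 14.3 CPM in RFP cells and 67.6 CPM in GFP cells (log2 ratio -2.17). At least 10 CPM were found in 4 RFP cells and 29 GFP cells, and RFP cell 19 alone held 73.3% of the RFP reads. Its relative Sfmbt1 had 1.49 CPM in RFP cells and 12.7 CPM in GFP cells (-2.46), and without RFP cell 25, which held 68.5% of the RFP reads, the RFP level was 0.482 CPM.

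Among 18 genes of variant PRC1, which acts without a Cbx subunit, 4 were higher in RFP cells and 4 lower, shares near the 25% and 21.9% of all genes. Pcgf6, the subunit of the E2F6 and Mga complex, had 187 CPM in RFP cells and 54.3 CPM in GFP cells (log2 ratio 1.77), and its partner L3mbtl2 had 154 CPM in RFP cells and 24.2 CPM in GFP cells (2.63). Pcgf5 had 19.7 CPM in RFP cells and 116 CPM in GFP cells (-2.51), with at least 10 CPM in 9 of 55 RFP cells and 27 of 40 GFP cells. Bcor and Kdm2b, named above with Pcgf1, were higher in RFP cells by summed reads. Bcor had 57.8 CPM in RFP cells and 6.21 CPM in GFP cells (3.03). Kdm2b, which binds unmethylated CG, had 33.8 CPM in RFP cells and 13.9 CPM in GFP cells (1.22). For Bcor, GFP cell 13 held 95.1% of the GFP reads, and without it the GFP level was 0.314 CPM. For Kdm2b, RFP cell 44, with over 10% mitochondrial reads, held 25.4% of the RFP reads, and the difference of mean log2 levels was 0.06. The share of cells with at least 10 CPM of Kdm2b was smaller in RFP cells (20 of 55, 36.4%) than in GFP cells (18 of 40, 45%). Yaf2 had 15.2 CPM in RFP cells and 39.9 CPM in GFP cells (-1.34).

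Genes of the complex that removes ubiquitin from H2A, the opposite reaction to that of PRC1, had the highest median of the 5 further Polycomb lists: 7 of 10 were higher in RFP cells and 2 lower, against 25% and 21.9% of all genes, with a median log2 ratio of 1.54 against 0.08 for all genes. By the difference of mean log2 levels that median was 0.84, against -0.06 for all genes. Bap1, the deubiquitinase itself, had 39.6 CPM in RFP cells and 10.4 CPM in GFP cells (1.83). Its cofactors Asxl1 and Asxl2 had log2 ratios of 1.55 and 1.70. Ogt, the glycosyltransferase of the complex, had 322 CPM in RFP cells and 110 CPM in GFP cells (1.54), and Hcfc1 had 120 CPM in RFP cells and 28.1 CPM in GFP cells (2.05). Foxk2, a forkhead factor that binds the complex, had 22.3 CPM in RFP cells and 8.25 CPM in GFP cells (1.34). Of the 3 H3K27 demethylase genes, none was past 1 in either direction, and they ran from -0.75 (Kdm6b) to just short of 1 (Kdm6a).

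**Figure D4:**
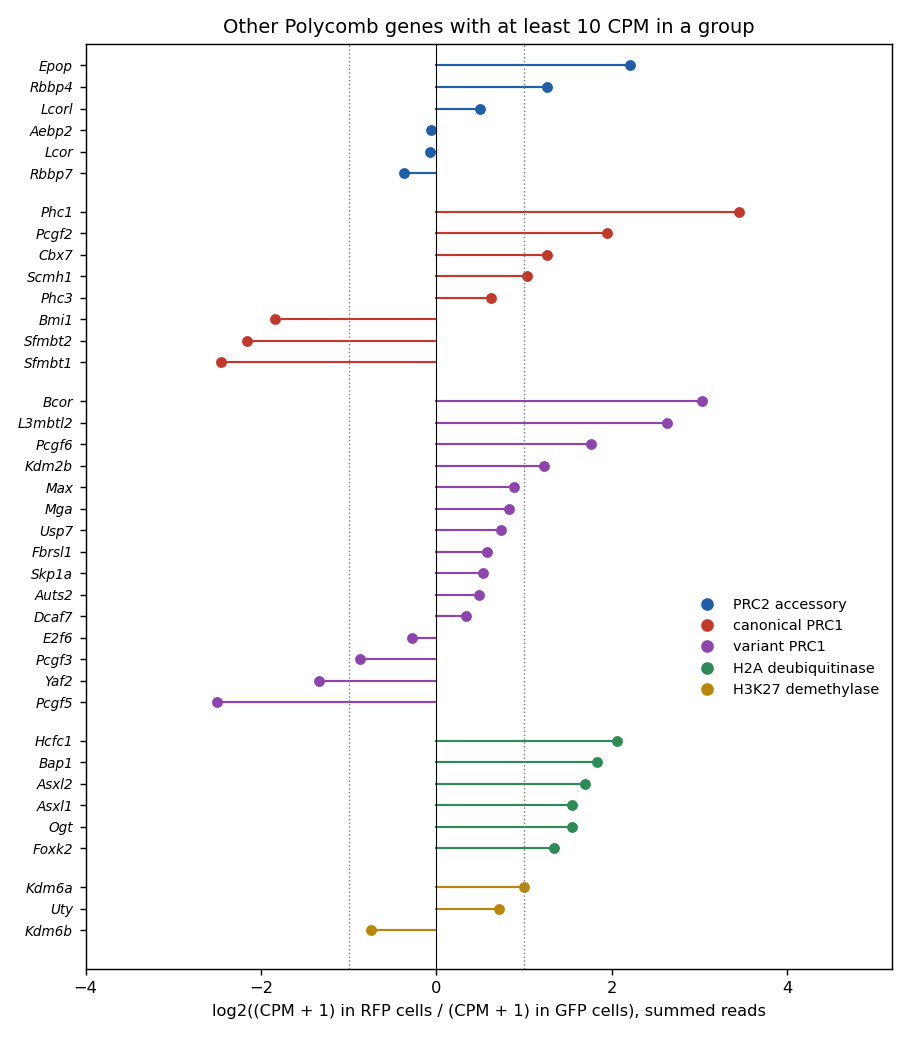
Log2 ratio of RFP over GFP cells for the further Polycomb genes with at least 10 CPM in a group, by complex, with dotted lines at -1 and 1. The 6 genes of the H2A deubiquitinase complex shown are all to the right of 1. Genes of the canonical and variant PRC1 lists lie on both sides, from -2.51 for Pcgf5 to 3.45 for Phc1. The canonical PRC1 list includes Sfmbt1 and Sfmbt2.

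Methylation at the start regions gave another readout of the same genes, in cultured cells. Each region ran from 1000 bases before to 500 after a RefSeq start, and 9 of the 10 genes were matched to the promoter table used here, while Pcgf1 was not analysed in this readout. All 9 lay under 20% in the Actin-RFP ESC library and in the Gjb2-35delG ESC library, and 5 did so in the MEF library. With a region from 2000 bases before to 1000 after the start, 6 of the 9 did so in the Gjb2-35delG ESC library, where Rnf2 stood at 40.6%, Phf19 at 25.3% and Ring1 at 21.6%, and 2 did so in the MEF library. Among all promoters with 50 or more calls, the shares under 20% were 53.1% in Actin-RFP ESCs, 40.6% in Gjb2-35delG ESCs and 32.6% in MEF. These shares are for the region of 1000 bases before to 500 after a start, and none was computed for the wider region. The 9 genes have 17 to 41 CG around the first start, against a median of 7 over all promoters. A share over promoters of like CG content was not computed, so these shares are not a like background. The whole libraries differed as well, with 38.6% of all calls methylated in Actin-RFP ESCs, 66.2% in Gjb2-35delG ESCs and 78.2% in MEF. With 1 library for each, a difference between cell types cannot be told apart from one between libraries.

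Ezh2, Eed, Jarid2, Phf19 and Ring1 were low in all 3 libraries, between 0.746% and 12.7%, and the second listed start of Jarid2 lay in that range too. At Ezh2, whose start region is printed above, 4.10% of calls were methylated in Actin-RFP ESCs (95% Wilson interval 2.72 to 6.12%), 5.36% in Gjb2-35delG ESCs (3.50 to 8.14%) and 7.06% in MEF (4.75 to 10.4%). Ezh1 differed from its paralogue, with 9.61% in Actin-RFP ESCs (7.19 to 12.7%), 15.2% in Gjb2-35delG ESCs (11.8 to 19.3%) and 50.6% in MEF (46.3 to 54.8%). Rnf2 had 8.83% in Actin-RFP ESCs, 18.1% in Gjb2-35delG ESCs and 25.9% in MEF. Suz12 had 4.79% in Actin-RFP ESCs, 3.24% in Gjb2-35delG ESCs and 24.1% in MEF. With 500 bases on either side of the start, Suz12 was at 4.76% and Rnf2 at 1.52% in MEF while Ezh1 was at 41.6%, so the MEF methylation at Suz12 and Rnf2 lay at the edge of the wider window.

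Mtf2 held the widest contrast. Its first start had 2.65% of calls methylated in Actin-RFP ESCs, 4.4% in Gjb2-35delG ESCs and 20.7% in MEF, and within 500 bases of the start the MEF value was 3.77%. Its second start had 3.43% in Actin-RFP ESCs (1.58 to 7.28%, 175 calls), 3.59% in Gjb2-35delG ESCs (1.66 to 7.62%, 167 calls) and 85.3% in MEF (78.4 to 90.3%, 136 calls). Of 30242 RefSeq start regions with 50 or more calls in each library, 309 (1.02%) were likewise under 20% in both ESC libraries and over 60% in MEF. The second start was singled out after its values were seen.

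Low windows in ESCs were not confined to the second start. Of the 22 covered windows of 200 bases within 4000 bases of the second start, 14 were under 20% in both ESC libraries and over 60% in MEF, spread from position -2664 to 2136 relative to that start. Windows further from it also passed these limits. At 6027 bases from the first start, the window had 0% in Actin-RFP ESCs, 10.8% in Gjb2-35delG ESCs and 100% in MEF. The 4000 bases were a chosen limit, and no share over other windows was computed. Over the gene body, outside 2000 bases on either side of its starts, Mtf2 had 21.9% of calls methylated in Actin-RFP ESCs, 40.1% in Gjb2-35delG ESCs and 93.2% in MEF, and its levels in both ESC libraries were the lowest of the genes measured over their bodies. Over its own body, Ezh2 had 43.1% in Actin-RFP ESCs, 66.1% in Gjb2-35delG ESCs and 91.9% in MEF. Expression of these cultured cells was not analysed here, so which Mtf2 start they use was not tested.

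**Figure D5:**
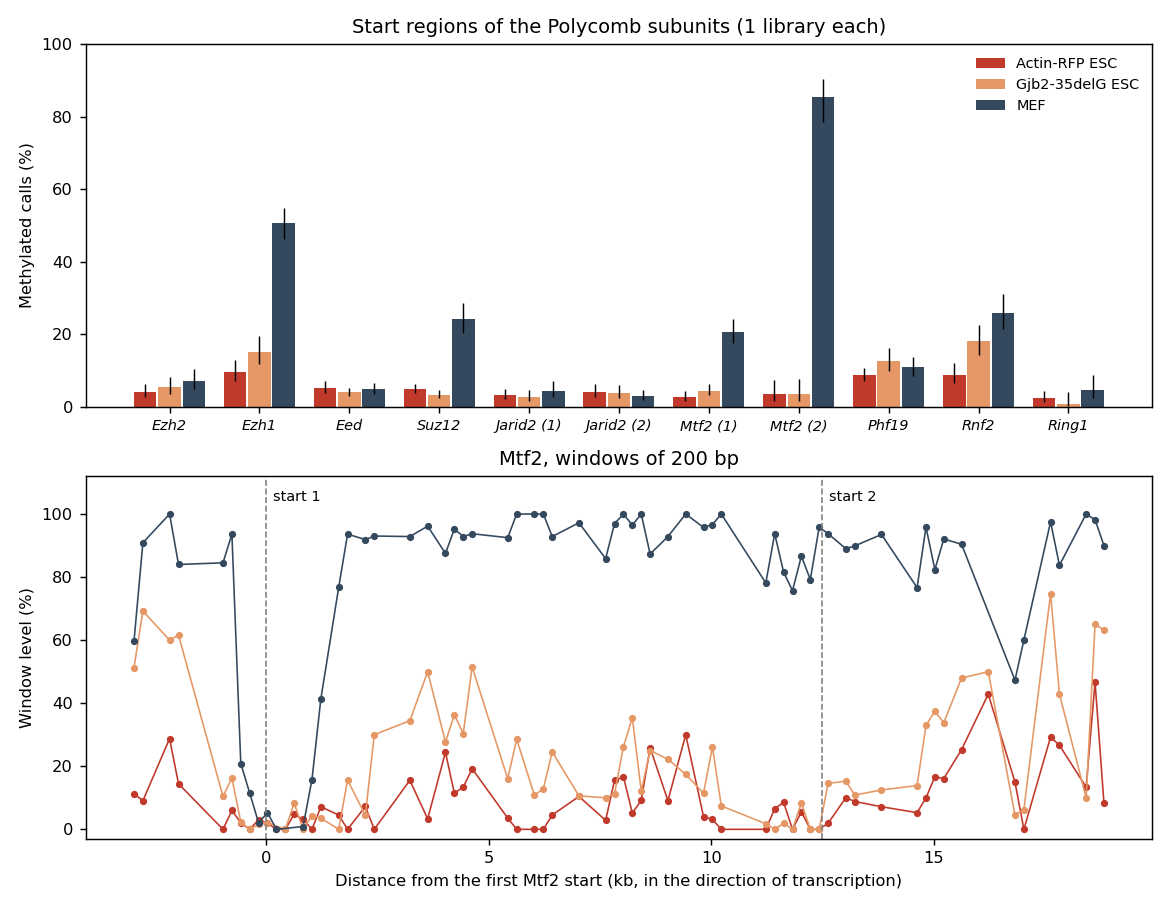
Top, percent of methylated calls in the start region of each Polycomb gene in the Actin-RFP ESC, Gjb2-35delG ESC and MEF libraries (1 each, bars start at 0, lines are 95% Wilson intervals). Bottom, level of 200 bp windows along Mtf2 against distance from its first start, where the MEF windows fall under 20% only near the first start, and the ESC windows stay lower along the gene with a further dip around the second.

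Sequence at the starts was also compared. The 9 Polycomb genes matched to a promoter sequence had 17 (Eed) to 41 (Suz12) CG in the 300 bases around the first start, all above the median of 7. The strings TTTGGCGC, TTTCCCGC, TTTGCCGC and TTTCGCGC, read as E2F-type motifs on either strand, occurred in 3 of the 9 promoters, those of Ezh2, Suz12 and Phf19, against 2.32% of all 27025. Each of these strings holds a CG, and the 9 promoters hold more CG than most. A share over promoters of like CG content was not computed, so the 2.32% is not a like background. In Ezh2 the match is TTTGGCGC, visible near the right end of its window printed above.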

How the data were processed

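Single cells were picked, lysed and amplified as full-length cDNA and sequenced as paired reads, per the labels' protocols. Tools listed in the submitters' processing notes, without a role, are STAR 2.7.3a, fastp 0.20.0, DESeq2 1.30.0, featureCounts 2.0.0, deepTools 3.3.1 and StringTie 2.0, with the build mm10. The authors deposited expression as a signal, in which each cell's read counts per gene were scaled by 1 factor. Dividing by each cell's smallest value above 0 gave whole reads for 100% of values within 0.01. How the 13927 genes were chosen is not stated in the files or labels. The log2 fold changes of the authors' deposited table were copied, and the authors' adjusted p-values were not printed because the role of the cells in them is not stated. In each bisulfite library the authors deposited, per window of 200 bp, a methylation fraction with counts of calls, methylated and not. For these libraries no source names an aligner or a caller. Chromosome lengths of the files match GRCm38.

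Recovered reads of all cells of a colour were added up and scaled to CPM with exact 95% Poisson intervals, and log2 ratios used a pseudocount of 1 CPM. Shares of cells and of reads have exact 95% binomial intervals, and shares of calls have Wilson intervals. Reads are not molecules, so the intervals of reads and calls cover counting error only. Those of shares of cells treat cells as independent draws and cover no difference between embryos. The log2 ratio step was run on simulated counts with changes planted in genes of at least 10 CPM. That check does not cover genes near the floor or genes whose reads come mostly from a single cell. No count model was fitted, because 1 sample per colour leaves no replicate, and no p-value was computed. Calls of windows whose centre lay in a start region were summed. Promoter sequences, starts and gene spans are RefSeq's on GRCm38.p6. Python 3.11.15, numpy 2.4.6, scipy 1.17.1 and pandas 2.3.3 were used, with edgeR 4.0.16 for TMM factors alone. The 10 genes and the gene lists were chosen with earlier results of these data known. All 10 were named, and further Polycomb genes were named if they had 10 CPM in a group and a log2 ratio of at least 1 in size. Kdm6a, Kdm6b and the second Mtf2 start were named outside that rule, after their values were seen. Tissue amplicons at the Gjb2 site, the E7.5 sample and 26 further cells labelled by colour were not analysed here.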

Additional observations from a re-analysis of the deposited data

How the results depend on the processing

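The counts of Polycomb genes past a log2 ratio of 1 were 2 higher and 2 lower in RFP cells. The number lower was 1 with a pseudocount of 10 CPM, 1 without the 5 cells over 10% mitochondrial reads, 1 among genes with at least 10 CPM in a group, and 1 to 2 with each cell left out in turn. The number higher was 1 by the difference of mean log2(CPM + 1), where that gene is Ezh1 (1.05) in place of Eed (0.99) and Phf19 (0.96), and the 2 lower are Mtf2 (-1.68) and Rnf2 (-1.63) while Ring1 is at -0.50. The number higher was 2 to 3 with each cell left out in turn, where Ezh1 joins without GFP cell 27. It was 3 without the 5 cells over 10% mitochondrial reads, with Ezh1 at 3.12. In marker-concordant cells, which lack GFP cell 27, it was also 3, with Ezh1 at 3.22. Median-of-ratios and TMM scaling left both counts at 2. The shares of all genes past that size moved with the setting as well. With a pseudocount of 10 CPM, 11.4% of all genes were higher and 10.4% lower. By the difference of mean log2(CPM + 1), 8.53% were higher and 18.9% lower. These shares lie below those of the main setting, so the smaller counts there cannot be read as a change in the Polycomb genes alone. Without the 5 cells over 10% mitochondrial reads, 21.9% of all genes were lower, as in the main setting.

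The Ezh2 share of its pair in RFP cells was 92.8% by mean CPM, 94.6% without the cells over 10% mitochondrial reads, and 93.7 to 95.1% with each cell left out in turn. In GFP cells it was 90.9% by mean CPM, 99.7% without the cell over 10% mitochondrial reads, 99.7% in marker-concordant cells, and 95.7 to 99.7% with each cell left out. The Rnf2 share of its pair was 99.3 to 99.98% in RFP cells and 96.9 to 98.3% in GFP cells with each cell left out, and 97.6% in GFP cells by mean CPM. Polycomb starts under 20% in MEF numbered 8 with 500 bp on either side and 2 with 2000 bp upstream to 1000 bp downstream, and in Gjb2-35delG ESCs 6 in that wide region and 8 by the mean of window fractions, where Ezh1 stood at 21%. The cause of these changes was not tested. For the other regions and for the window fractions, no share over all promoters was computed.

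Over all settings, 63 single-gene values stayed within the interval of the main value and 77 moved beyond it. Of the summary values, 33 stayed within the interval of the main value (counts of genes within 1.5 times) and 21 did not. The correction of paralogue shares for transcript length was not run, since no transcript lengths were at hand. No paired analysis was possible because the cell numbers only name cells and no test was run. Genes near 1 CPM such as Ring1 rest on few reads from few cells, so the number of cells limits their ratios.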
